A study of Oryza sativa with 6 samples.

Results

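Pyruvate decarboxylase and alcohol dehydrogenase carry out ethanol fermentation, the route by which plant cells short of oxygen keep glycolysis running. Pyruvate decarboxylase turns pyruvate into acetaldehyde, and alcohol dehydrogenase reduces the acetaldehyde to ethanol, which gives back the NAD+ that glycolysis uses. In rice, a crop of flooded soils, genes of both enzymes are known for induction in submerged or oxygen-starved roots and seedlings.

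The genes described here are those whose symbol or synonym is ADH or PDC followed by a number from 1 to 5, with or without the prefix Os. The RefSeq gene table holds 5 of them: ADH1 and Adh2 on chromosome 11, PDC1 on chromosome 5, PDC2 on chromosome 3 and PDC3 on chromosome 7. Of the 5 genes 2 had a probe set annotated to exactly 1 gene, PDC1 (LOC4339066) and PDC2 (LOC4332519), with 1 probe set each, out of 14662 genes so measured. ADH1, Adh2 and PDC3 had no such probe set in the annotation used here and were not analysed, so that what follows covers the decarboxylase step and not the dehydrogenase step.

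The arrays measured RNA of roots from 3-week-old rice of the cultivar Swarna MTU7029. Control roots (0 h) had been given nothing, and the others were harvested 6 h or 24 h after a cell suspension of the yeast Rhodotorula mucilaginosa JGTA-S1 was added. There were 2 arrays at each time and 6 in all, a number too small for narrow intervals. Whether both arrays of a time stand for separate plants is not said in the labels, and any p-value therefore reflects only how far apart these samples lie, which could be technical scatter. There were no roots without yeast at 6 h or 24 h, so the yeast and the elapsed time cannot be told apart. In bulk roots, fewer cells of a type and less RNA per cell cannot be told apart either.

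Deposited values are read as log2 signal, and array medians lay between 2.79 and 2.93. The 0 h arrays stood apart from the rest in several ways. They correlated with each other at 0.868 over probe sets, against 0.936 at 6 h and 0.976 at 24 h. Their SD over probe sets was 1.46 to 1.50, against 1.62 to 1.82 at the later times. The first-numbered probe sets of the array mostly read higher later, by up to 4.72 at 6 h and 4.70 at 24 h. Dim probe sets numbered just after them mostly read lower. What these probe sets measure was not looked up. Of 12 root marker genes, among them the silicon transporter gene Lsi2 and the endodermal gene OsCASP1, 11 or 12 lay above the median of every array. The log2 of their summed signal was 10.2 to 10.5 at 0 h, 10.5 to 10.6 at 6 h and 10.3 to 10.5 at 24 h. Of 7 genes of green shoot tissue, 3 to 5 lay above the array median, and the log2 of their summed signal was 6.60 to 7.15 at 0 h, 5.91 to 6.59 at 6 h and 6.54 to 6.90 at 24 h. The part of these shifts in the results below was not tested.

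PDC1 and PDC2 encode the same enzyme activity, and after the yeast their signals lay on opposite sides of the control. PDC1 read higher than at 0 h on all 4 later arrays and PDC2 read lower on all 4. Neither difference passed the test used throughout, limma's moderated test with a Benjamini-Hochberg adjusted p under 0.05 over all 41770 probe sets. The words rose, fell and changed are kept for genes that passed it.

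The control arrays gave PDC1 log2 signals of 2.98 and 3.27, the 6 h arrays 3.95 and 4.76, and the 24 h arrays 4.15 and 3.39. The 6 h arrays and the 24 h arrays were all above both controls, but the second 24 h array exceeded the higher control by only 0.12. The means were 3.12 ± 0.20 (SD, n = 2) at 0 h, 4.36 ± 0.57 at 6 h and 3.77 ± 0.53 at 24 h. The replicate arrays of PDC1 lay far apart at the later times, since 81.3% of probe sets had a smaller SD at 6 h and 93.9% at 24 h. On the control arrays PDC1 was close to the array median, with 52.4% and 60.5% of probe sets below it, and how far such a signal lies above background is unknown. Probe sets differ in brightness for reasons other than transcript level, so these shares place PDC1 on the array and not among genes by expression.

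The control arrays gave PDC2 log2 signals of 7.04 and 6.89, the 6 h arrays 6.35 and 6.37, and the 24 h arrays 6.27 and 6.60. All 4 later arrays were below both controls, by at least 0.29. The means were 6.97 ± 0.11 (SD, n = 2) at 0 h, 6.36 ± 0.02 at 6 h and 6.43 ± 0.23 at 24 h. PDC2 was a bright probe set on all 6 arrays, with 92.3% to 97.0% of probe sets below it. Its arrays lay close together at 0 h and at 6 h, where 18.7% and 3.18% of probe sets had a smaller SD. At 24 h 64.6% of probe sets had a smaller SD.

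**Figure D1:**
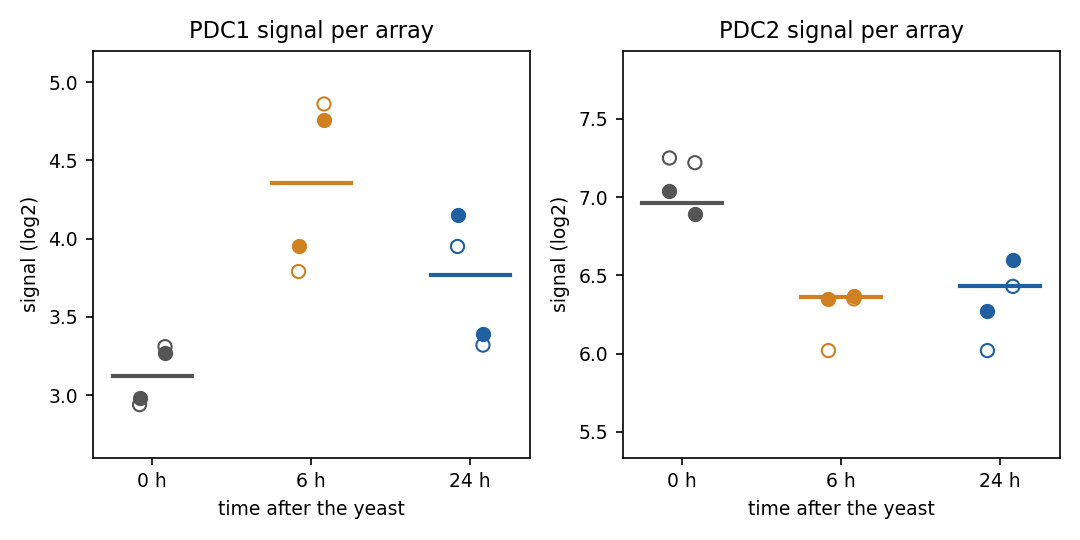
Signal of PDC1 (left) and PDC2 (right) on each array, on a log2 scale, by time after the yeast. Filled points are deposited values and lines their means per time, and open points are the same arrays after quantile normalization; both vertical axes span the same number of log2 units. All later PDC1 points lie above the 0 h points and all later PDC2 points below them, and PDC1 at 6 h spans 3.95 to 4.76.

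The first comparison set 6 h against 0 h. PDC1 read 2.36-fold higher, a log2 difference of 1.24 ± 0.40 (SE, with n = 2 arrays at each time), with a 95% interval of the fold from 1.25 to 4.46. The unadjusted p was 0.0146 and limma's adjusted p = 0.153, so PDC1 did not pass. PDC2 was 1.53-fold lower (log2 difference -0.61 ± 0.29), with a 95% interval of the log2 difference from -1.29 to 0.07. Its unadjusted p was 0.0723 and limma's adjusted p = 0.304. Of the 2 genes 0 passed, where 1.53% of all probe sets did. At an unadjusted p under 0.05 the count was 1 of 2, where 19.2% of all probe sets had such a p. Of the 14662 genes with a probe set of their own, 3419 did. The side on which a gene's arrays lay is common in these data as well. Both 6 h arrays were above both controls for 22.4% of probe sets and below both for 23.3%. Among the 14662 genes the sides were unequal, with 5034 above both controls and 2137 below both.

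At 24 h against 0 h both differences had the same signs and were smaller. PDC1 was 1.57-fold higher (log2 difference 0.65 ± 0.40, limma adjusted p = 0.378), with an interval from -0.27 to 1.57 on the log2 scale. PDC2 was 1.45-fold lower (log2 difference -0.53 ± 0.29, limma adjusted p = 0.330), with an interval from -1.21 to 0.15. Of the 2 genes 0 passed and 0 had an unadjusted p under 0.05, where 2.21% and 21.5% of all probe sets did. Both 24 h arrays were above both controls for 28.4% of probe sets and below them for 28.0%. Of the 14662 genes with a probe set of their own, 6242 were above and 2386 below. An unadjusted p under 0.05 was found for 3810 of these genes. All 4 later arrays were above both controls, as for PDC1, in 18.2% of probe sets, and below both, as for PDC2, in 16.3%. The 6 h and 24 h comparisons share the same control arrays, so their like signs are not separate evidence.

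Between 6 h and 24 h the arrays of the 2 times overlapped for both genes, as they did for all but 32.7% of probe sets. No control array enters these differences, but the control arrays do enter their SE, intervals and p-values. PDC1 differed by -0.59 ± 0.40 on the log2 scale at 24 h against 6 h (limma adjusted p = 1.0), with an interval from -1.51 to 0.33. PDC2 differed by 0.08 ± 0.29 (limma adjusted p = 1.0), with an interval from -0.60 to 0.75. The interval for PDC2 still allows a difference of up to 1.69-fold. Of the 2 genes 0 passed and 0 had an unadjusted p under 0.05, and over all probe sets 0.0% passed and 2.63% had such a p.

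The balance of both decarboxylase genes can be read within each array as PDC1 minus PDC2, a quantity that a common shift of an array leaves as it is. It was -4.06 and -3.62 at 0 h, -2.39 and -1.61 at 6 h, and -2.12 and -3.21 at 24 h, in log2 units. The later arrays were all above the controls, by 1.85 on average at 6 h and 1.18 at 24 h. The second 24 h array lay nearest the controls. The quantity was chosen after both genes had been seen on opposite sides of the control, restates that, and was not tested. Its size at any time does not compare the transcript levels of the genes.

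How the arrays are scaled mattered more for PDC2 than for PDC1 at 6 h. After quantile normalization PDC2 read 7.25 and 7.22 at 0 h, 6.02 and 6.35 at 6 h, and 6.02 and 6.43 at 24 h. The difference at 6 h became -1.05 (limma unadjusted p = 0.00901, adjusted p = 0.161), and at 24 h -1.01 (adjusted p = 0.194). Cyclic loess gave -1.11 and -1.08, with limma adjusted p = 0.141 and 0.175. For PDC1 at 6 h the value was 1.20 after quantile normalization and 0.97 after cyclic loess, whereas at 24 h it was 0.51 and 0.22. Centring each array on its median gave 1.36 for PDC1 and -0.49 for PDC2 at 6 h, and moved the median of all probe sets there from -0.06 to 0.06. No scaling tried turned the sign of either gene against 0 h or made it pass.

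**Figure D2:**
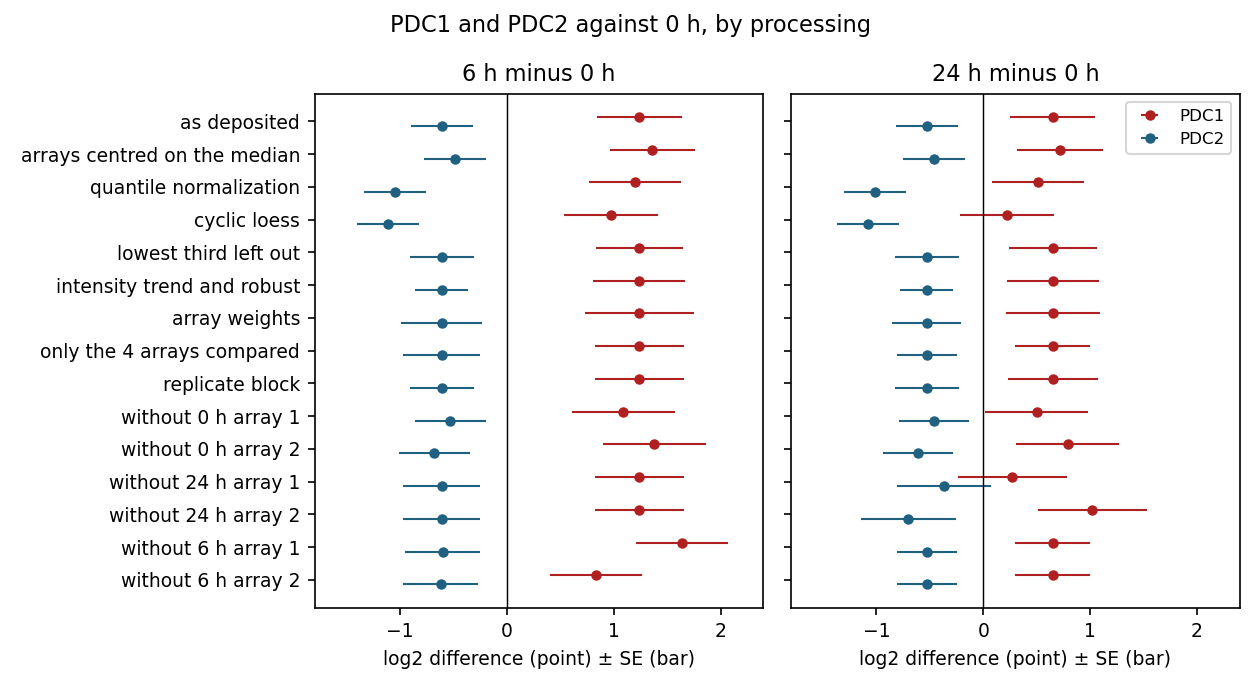
Log2 difference from 0 h of PDC1 and PDC2 at 6 h (left) and 24 h (right), one line per way of processing; points are differences and bars ± 1 standard error. PDC1 lies right of 0 and PDC2 left of 0 on every line, and PDC2 moves from -0.61 as deposited to -1.11 with cyclic loess at 6 h. Only a change of scaling could have turned a sign. For both genes the later arrays do not overlap the controls, so the other settings keep the sign by construction.

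Probe sets as bright as PDC2 mostly read higher after the yeast, so PDC2 went against them. Among 1539 probe sets whose mean signal was within 0.5 of that of PDC2, the median log2 difference was 0.52 at 6 h and 0.57 at 24 h, and 5.0% and 2.66% of them had a lower difference than PDC2. Among 7060 probe sets within 0.5 of PDC1 the medians were 0.20 and 0.38, and 8.33% and 35.1% had a higher difference than PDC1. These windows were chosen after the values were seen and describe the arrays without a test.

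**Figure D3:**
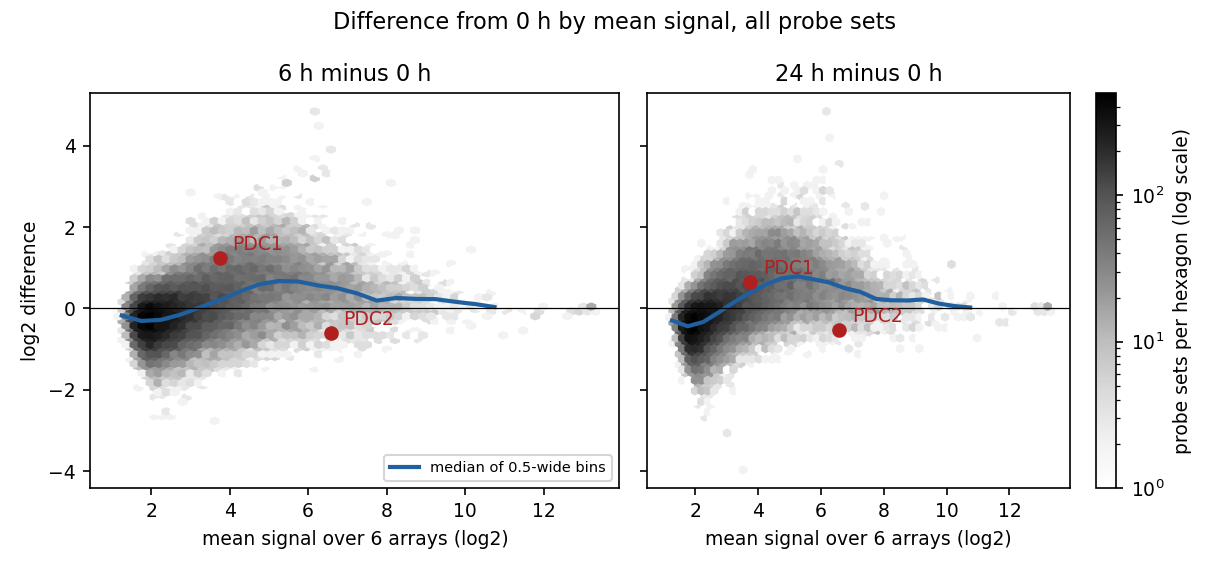
Log2 difference from 0 h at 6 h (left) and 24 h (right) against the mean log2 signal over 6 arrays for all 41770 probe sets, shaded by their number; the line joins medians of bins 0.5 wide and the points are PDC1 and PDC2. PDC2 lies below the line, which is near 0.5 at its signal, and PDC1 lies above it at 6 h.

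Glycolysis delivers pyruvate to the decarboxylases, and its measured genes included 1 that rose. Most genes of this list were hexokinase and fructokinase genes, and no phosphofructokinase or pyruvate kinase gene was among them. Of 15 measured genes from sugar kinases to enolase 1 rose and 0 fell at 6 h and at 24 h, 14 did not pass, and 13 of 15 read higher at each time. Over all probe sets 1.39% rose and 0.144% fell at 6 h, and 1.98% and 0.237% at 24 h. The list median was 0.29 at both times, against -0.06 and -0.04 over all probe sets and 0.20 and 0.26 over all genes with a probe set of their own. Of the latter genes 61.4% read higher at 6 h and 64.3% at 24 h. Among these 14662 genes 307 rose and 15 fell at 6 h, and 436 and 16 at 24 h. PGI-A, a glucose-6-phosphate isomerase gene, had signals of 5.33 and 6.04 at 0 h, 7.63 and 7.57 at 6 h, and 7.91 and 7.50 at 24 h. All later arrays of PGI-A were well above both controls, and all later arrays were above both controls for 18.2% of probe sets. It rose 3.76-fold at 6 h (log2 difference 1.91 ± 0.35, limma adjusted p = 0.0449) and 4.06-fold at 24 h (2.02 ± 0.35, adjusted p = 0.0368). The call was lost after quantile normalization, at 1.42 and 1.51 (limma adjusted p = 0.138 and 0.145), and without any 1 array of 6 h or 24 h. Few or no probe sets passed without such an array, so that loss does not single out PGI-A. The difference without such an array lay between 1.89 and 1.94 at 6 h and between 1.82 and 2.23 at 24 h. The hexokinase genes HXK5, known as a glucose sensor in rice, and HXK3 differed by 1.64 ± 0.50 and 1.25 ± 0.42 at 6 h and by 1.86 ± 0.50 and 1.39 ± 0.42 at 24 h, and did not pass. HXK5 rested on its control arrays, which read 5.0 and 3.43. Without the first of them HXK5 differed by 2.42 at 6 h and 2.65 at 24 h, and without the second by 0.85 and 1.07. GAPC and Eno1, for glyceraldehyde-3-phosphate dehydrogenase and enolase, differed by 0.31 and 0.30 at 6 h and by 0.36 and 0.35 at 24 h; both were picked for their roles after their values were seen.

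Of 18 genes that release sugar for glycolysis 0 passed at either time. At an unadjusted p under 0.05 there were 2 at 6 h and 4 at 24 h, where 19.2% and 21.5% of all probe sets had such a p. The list of amylases, sucrose synthases and invertases had a median of 0.03 at 6 h and -0.12 at 24 h, and 10 and 7 of 18 read higher. Of all genes with a probe set of their own 61.4% and 64.3% did. OsSUS6, a sucrose synthase gene, had signals of 3.08 and 3.18 at 0 h, 5.43 and 4.44 at 6 h, and 4.67 and 5.0 at 24 h. It differed by 1.80 ± 0.38 at 6 h (limma adjusted p = 0.0626) and 1.70 ± 0.38 at 24 h (adjusted p = 0.0622), just short of the threshold. With arrays centred on their median it passed, with limma adjusted p = 0.0434 and 0.0495, and it also passed where genes were tested with 1 probe set each (0.0450 and 0.0466). Cyclic loess lowered it to 1.33 and 1.08 (0.124 and 0.196), and leaving out any 1 array gave adjusted p from 0.0668 to 0.423. OsSUS4, of the same family, differed by 0.47 ± 0.42 at 6 h and 1.12 ± 0.42 at 24 h.

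AMY1.3, also named RAmy3D, is the alpha-amylase known for its induction by sugar and oxygen shortage in rice seedlings. Its chosen probe set read 5.82 and 3.38 at 0 h, 2.85 and 3.10 at 6 h, and 2.51 and 2.64 at 24 h. The control arrays differed from each other by more than any later pair did. The differences were -1.63 ± 0.67 at 6 h (limma adjusted p = 0.239) and -2.02 ± 0.67 at 24 h (adjusted p = 0.144). A second probe set of AMY1.3 read 1.88 and 4.04 at 0 h and differed by 0.34 at 6 h and 0.19 at 24 h, so that the probe sets disagree in sign. Without the second control array the chosen probe set differed by -2.85 at 6 h and -3.24 at 24 h, and without the first by -0.41 and -0.81.

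The kinase CIPK15 is known in rice seedlings for linking low oxygen to the sugar-starvation kinase SnRK1A, the factor MYBS1 and RAmy3D. Among 12 measured genes of oxygen and sugar signalling it was the only 1 to rise at 6 h or at 24 h, 0 fell, and 11 did not pass. Over all probe sets 1.39% rose and 0.144% fell at 6 h, and 1.98% and 0.237% at 24 h. CIPK15 had signals of 4.33 and 3.76 at 0 h, 7.0 and 6.54 at 6 h, and 6.97 and 6.74 at 24 h. Its later arrays were all above both controls, as for 18.2% of all probe sets. Its differences were 2.73 ± 0.34 (limma adjusted p = 0.0154) and 2.81 ± 0.34 (adjusted p = 0.0174), and quantile normalization took away both calls, at 2.29 and 2.36 (adjusted p = 0.0640 and 0.0760). Leaving out any 1 treated array also took away the call at both times. Few or no probe sets passed in those fits, so the loss does not single out CIPK15. The difference in those fits lay between 2.50 and 2.96 at 6 h and between 2.70 and 2.92 at 24 h.

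The partners of CIPK15 did not pass. OSK1, the gene of SnRK1A, differed by 1.05 ± 0.53 at 6 h and 1.03 ± 0.53 at 24 h. Its control arrays read 5.23 and 3.51, and its later arrays 5.16 to 5.66. MYBS1 differed by -0.43 ± 0.39 and 0.02 ± 0.39. Both were picked for their roles after their values were seen. The trehalose phosphate phosphatase genes OsTPP4 and OsTPP1 differed by 1.29 ± 0.37 and 0.91 ± 0.31 at 6 h, and by 1.70 ± 0.37 (limma adjusted p = 0.0571) and 1.17 ± 0.31 (adjusted p = 0.0944) at 24 h. Without the first control array OsTPP4 differed by 1.76 and 2.17, and without the second by 0.82 and 1.23. At 24 h OsTPP4 passed with centred arrays (limma adjusted p = 0.0478), array weights (0.0354), dim probe sets left out (0.0463) and an intensity trend (0.0285). It also passed there with genes tested by 1 probe set each (0.0428) or by their mean (0.0420). After quantile normalization it differed by 0.82 and 1.26 (0.294 and 0.180) and did not pass. At 6 h its lowest adjusted p over the processing alternatives was 0.0651. OsTPP1 passed at 24 h with an intensity trend (0.0310) and in no other alternative. OsTPP7, of the same family and known from germination under water, differed by 0.64 and 0.98 and was picked for its role in the same way. The list median was 0.41 at 6 h and 0.24 at 24 h, against 0.20 and 0.26 over all genes with a probe set of their own. Of the 12 genes 9 and 11 read higher, as did 61.4% and 64.3% of all such genes.

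Other genes tied to respiration at low oxygen did not pass at any time. Of 8 such genes 0 passed, 3 read higher at 6 h and 4 at 24 h, and the median was -0.45 and 0.19. Among all genes with a probe set of their own 61.4% and 64.3% read higher. Of the 8 genes 3 had an unadjusted p under 0.05 at 6 h and 2 at 24 h (all probe sets: 19.2% and 21.5%). The non-symbiotic haemoglobin genes NSHB3 and NSHB1, whose proteins scavenge nitric oxide, differed by -1.26 ± 0.34 (limma adjusted p = 0.106) and -1.18 ± 0.41 (0.175) at 6 h, and by -0.76 ± 0.34 and -0.26 ± 0.41 at 24 h. AOX1, the alternative oxidase gene of mitochondria, read 4.31 and 4.01 at 0 h, 5.12 and 5.11 at 6 h, and 5.05 and 4.95 at 24 h. Its later arrays lay close together and above both controls, as all later arrays did for 18.2% of probe sets. The differences were 0.96 ± 0.29 (limma adjusted p = 0.136) and 0.84 ± 0.29 (0.158). Cyclic loess lowered these to 0.40 and 0.15 (limma adjusted p = 0.530 and 0.843).

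Only 2 dehydrogenases of the neighbouring branches were measured, and neither passed. FDH, the glutathione-dependent alcohol dehydrogenase of class III that acts on formaldehyde adducts and not in ethanol fermentation, differed by -0.04 ± 0.31 at 6 h and 0.22 ± 0.31 at 24 h. ALDH5F1, a succinic semialdehyde dehydrogenase of the GABA shunt, had signals of 5.35 and 5.61 at 0 h, 6.56 and 6.70 at 6 h, and 6.63 and 6.47 at 24 h. It was 2.22-fold higher at 6 h (limma adjusted p = 0.0931) and 2.10-fold higher at 24 h (adjusted p = 0.0977). The later arrays of ALDH5F1 were all above both controls, as for 18.2% of all probe sets. After quantile normalization the log2 differences of ALDH5F1 were 0.58 and 0.48, in place of 1.15 and 1.07 (limma adjusted p = 0.380 and 0.488).

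**Figure D4:**
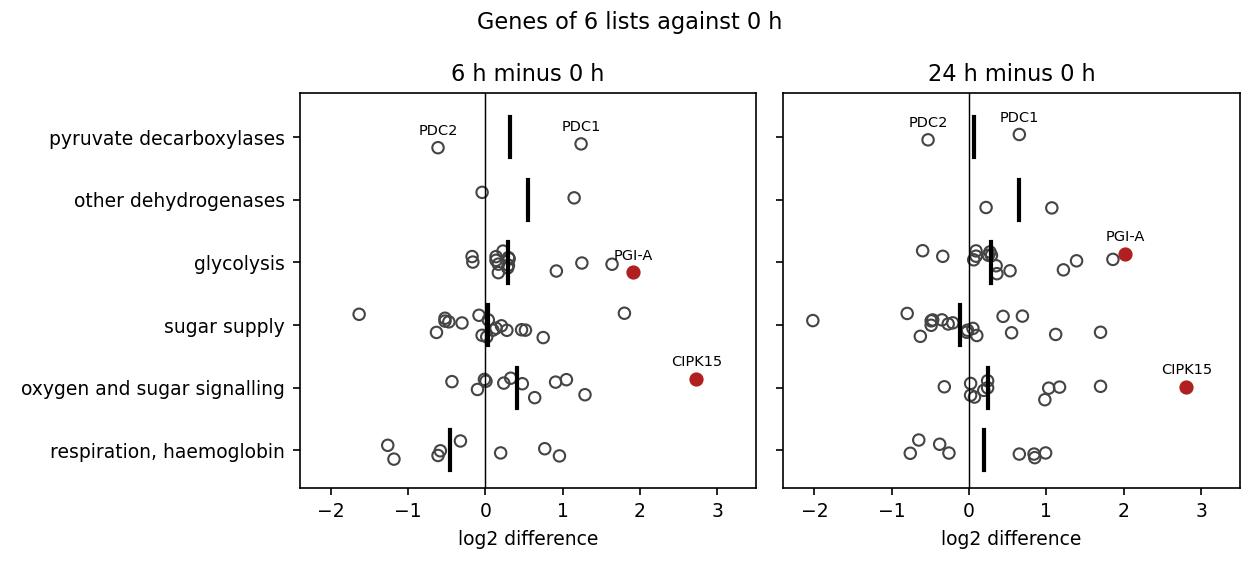
Log2 difference from 0 h at 6 h (left) and 24 h (right) of every measured gene of 6 lists; each point is a gene, filled where limma's adjusted p was under 0.05, and black bars are list medians. PGI-A and CIPK15 are the only filled points, and PDC1 and PDC2 lie on opposite sides of 0.

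Of the tissue markers 0 of 12 root genes and 0 of 7 shoot genes passed at any time. At an unadjusted p under 0.05 there were 3 root genes and 1 shoot gene at 6 h, and 2 and 0 at 24 h (all probe sets: 19.2% and 21.5%). The root aquaporin gene OsPIP2;3, the beta-expansin gene EXPB5 and the endodermis gene OsSCR1 differed by 1.27 ± 0.46, -0.77 ± 0.29 and 0.84 ± 0.33 at 6 h, and by 0.99 ± 0.46, -0.84 ± 0.29 and 0.95 ± 0.33 at 24 h. The chlorophyll-binding protein gene CAB1R and the photosystem I genes PSAH and OsPSAG differed by -1.06 ± 0.32, -0.89 ± 0.51 and 0.35 ± 0.30 at 6 h, and by -0.07 ± 0.32, -0.60 ± 0.51 and 0.45 ± 0.30 at 24 h. PSAH read 3.87 and 2.29 at 6 h, and its difference there was -1.68 without the first of these arrays and -0.10 without the second.

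The genes with a symbol whose profile over the 6 arrays was most like that of PDC1 were OsCASPL5B3, a CASP-like membrane protein gene (Pearson r = 0.993), CAX1b, a cation/proton exchanger gene (0.961), and OsZHD6, named for a zinc finger homeodomain protein (0.949). All 3 read highest on the second 6 h array, as PDC1 did. For PDC2 they were FDRMADS2, of the MADS-box family (0.983), CHS2 (0.974) and BLAP75 (0.972). Each read lower on the 4 later arrays than on both controls, as did 16.3% of all probe sets. These genes were dim, near or below the array medians of 2.79 to 2.93. These are the highest of 1949 coefficients per gene over 6 points that share their arrays, and they describe likeness only. The patterns shared with PDC1 and PDC2 follow from that choice. None of these 6 genes passed at 6 h or 24 h, and the lowest limma adjusted p among them was 0.0778, for CHS2 at 24 h (log2 difference -1.27).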

How the data were processed

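The deposited values, signals of each probe set and array taken as log2 from their range of 0.65 to 13.36, were made by the authors with Affymetrix Expression Console, per the submitters' processing notes. Its version, the summarisation, the background correction and any normalization: none was given in the sources used here. No detection calls were used. The platform annotation gave 15299 of 41770 probe sets 1 gene, 436 several and 26035 none. The RefSeq table of assembly ASM3414082v1 held 14661 of the 14662 gene numbers, and 1950 genes had a symbol. Of several probe sets of a gene the one with the highest mean over the 6 arrays was taken.

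Deposited values of all 6 arrays were fitted with limma 3.58.1 in R 4.3.3, 1 mean per time, with 3 residual and 5.08 prior degrees of freedom; Benjamini-Hochberg adjustment covered every probe set, with a threshold of 0.05. The fit was tested on simulated data with independent noise and changes larger than those of PDC1 and PDC2, which does not cover differences of their size. Python 3.11.15 made tables and plots. Besides the fermentation genes 7 lists were matched by symbol or synonym, and 13 matches whose other names point to another gene were removed. Members and lists were chosen with earlier results of these data known. Named genes are the members, the 3 of each other list with the lowest p before adjustment in either comparison with 0 h, any list gene that passed, and the 3 symbols most correlated with each member; others are said to be picked later. Alternatives were 3 scalings, a filter on dim probe sets, 2 variance settings, the 4 arrays compared, the replicate block, 2 rules for genes and each array left out.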

Additional observations from a re-analysis of the deposited data

How the results depend on the processing

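Across 16 alternatives, 10 of processing and 6 that leave out an array, 0 of the 2 decarboxylase genes passed in any comparison. Where an array is left out, the lone array of its time is assumed to vary like the others. PDC1 lay between 0.83 and 1.64 at 6 h and between 0.22 and 1.02 at 24 h, and PDC2 between -1.11 and -0.49 and between -1.08 and -0.37, with limma adjusted p from 0.114 to 0.891 over these 4 values. Leaving out the first 24 h array took PDC1 at 24 h to 0.27, and cyclic loess to 0.22. PDC1 at 24 h against 6 h lay between -0.99 without the first 6 h array and -0.19 without the second; PDC2 there lay between -0.09 and 0.24 with an array left out, turning sign without the second 24 h array. Signs also turned for FDH at 6 h (0.08 with arrays centred on the median, -0.30 to 0.21 with an array left out) and at 24 h (-0.37 with quantile normalization, -0.40 with cyclic loess), OsSUS4 at 6 h (-0.06 and -0.11 with these scalings, -0.14 to 1.09 with an array left out), and at 24 h NSHB1 (-0.70 to 0.17 with an array left out) and CAB1R (0.00 with centring, -0.33 to 0.18 with an array left out). The causes were not tested.

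With the replicate number as a block PDC1 at 6 h had a limma adjusted p = 0.173 and PDC2 0.310, and PGI-A lost its call (0.0632 at 6 h, 0.0521 at 24 h). Deviations of same-numbered arrays correlated at 0.0333 to 0.155 between times, so the numbers give no pairing. The counts over all probe sets, 641 at 6 h and 925 at 24 h, became 384 and 570 with the block, 81 and 24 with quantile normalization, 119 and 52 with cyclic loess, 187 and 1502 with array weights, and 81 and 0 with the 4 arrays compared; at 6 h there were 1146 with centring and 1062 with an intensity trend. They were 2249 and 2793 without the first control array, 1018 and 1326 without the second, 0 and 0 without either 6 h array, and 81 and 0 without either 24 h array. How far dim signals such as PDC1 at 0 h lie above background is unknown.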
